A study of Saccharomyces cerevisiae with 48 samples.

Results

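The BET proteins Bdf1 and Bdf2 of budding yeast (Saccharomyces cerevisiae) are chromatin-bound regulators of transcription. The libraries described here ask what is seen in new and total RNA when a further BDF1 copy with mutated bromodomains is present while both native proteins are still in the cell. They are the 12 DMSO libraries of strains RDY234, RDY235, RDY236 and RDY237, taken by strain and treatment labels from the 48 libraries of the series: 9 from bromodomain-mutant strains and 3 from the strain with an unmodified further copy. Neither the choice of strains nor that of libraries used a measured value.

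All of these strains descended from RDY73 (background BY4705; MATα, with ADE2, HIS3, LEU2, LYS2, MET15, TRP1 and URA3 deleted, by the study's strain list). They shared the auxin receptor gene OsTIR1 under the GPD1 promoter with a HIS3 marker, BDF1-3xV5-mAID::URA3 and BDF2-3xV5-mAID::KanMX. The mAID tag marks Bdf1 and Bdf2 for destruction only when the auxin IAA is added, so that in DMSO, the solvent, the tagged proteins remained. Each strain carried in addition a plasmid integrated at TRP1, with BDF1 under its own promoter and terminator: pMD28 with unmodified BDF1 in RDY234, pMD30 with a mutation of the first bromodomain (BD1) in RDY235, pMD31 with a mutation of the second (BD2) in RDY236 and pMD32 with both (BD1/2) in RDY237. The mutated residues were not given in the sources used here, nor whether a strain was a single clone, and protein levels are not part of these data. Cultures in YPD received DMSO for 3 h and then 5 mM 4-thiouracil (4tU) for 6 min as labelled (a shorter pulse is given in the methods of the study). The 3 replicates of each strain, A to C, were described as biological replicates.

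Bromodomains are pockets that bind acetylated lysine, above all on histone tails, and BET proteins hold them in tandem next to an extra-terminal (ET) domain that binds partner proteins. In budding yeast Bdf1 is known to associate with TFIID, the factor that places TBP at promoters, and with the SWR1 complex, which deposits the histone variant H2A.Z. In SLAM-seq the RNA made in the labelling period takes up 4tU, which after alkylation is read as C in place of T. A T>C read here carries at least 2 such conversions and stands for new RNA, while the total read count stands mostly for RNA made earlier.

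Values of single genes are normalised T>C reads, centred so that the median of 5118 tested genes has no difference between libraries. A gene was called raised or lowered at a Benjamini-Hochberg adjusted p under 0.05 in the quasi-likelihood test of edgeR, which was fitted to all 48 libraries. All of the comparisons with RDY234 share its 3 DMSO libraries, so a chance deviation of those would appear in each of them. The cultures are bulk samples, in which a change in the share of cells and a change of RNA per cell cannot be told apart.

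The 12 libraries held 6008321 to 8208058 S. cerevisiae reads and 563528 to 1163027 T>C reads. The Schizosaccharomyces pombe spike-in, mixed in by cell density, gave 462179 to 703063 reads. Reads of BDF1 (YLR399C, chromosome XII) were not split between the native gene and the further copy. The native gene carries the mAID tag, and whether it was counted as fully as the untagged copy was not tested. BDF1 had 418, 422 and 349 normalised T>C reads in RDY234, 451 to 558 in RDY235, 406 to 481 in RDY236 and 487 to 562 in RDY237, against 117 to 193 in RDY73, which has no further copy. The mutant strains lay above RDY234 by a log2 difference of 0.28 ± 0.12 (SE) in BDF1 and of 0.15 in BDF2, neither of which passed (adjusted p 0.191 and 0.545). TRP1 had 21.5 to 31.6 reads in RDY234 and 32.5 to 46.0 in the mutants. Genes particular to α cells summed to 2972 to 3950 T>C reads per library and those particular to a cells to 4.2 to 16.3. No chromosome stood apart: the 16 chromosome medians of the pooled comparison lay between -0.066 (IX) and 0.055 (III).

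The share of T>C reads was higher in the mutant strains than in RDY234. It was 10.2%, 8.09% and 9.42% in RDY234 replicates A to C, 11.8%, 12.1% and 11.8% in RDY235, 10.96%, 15.7% and 12.4% in RDY236, and 11.03%, 10.2% and 9.90% in RDY237. RDY235 and RDY236 did not overlap RDY234, RDY237 did, and replicate B of RDY236 stood above all other libraries. The 9 mutant libraries averaged 11.8% ± 1.68 (SD, n = 9) and the 3 of RDY234 9.23% ± 1.06 (SD, n = 3), a difference of 2.53 percentage points with an exact two-sided permutation p of 0.0409 and an adjusted p of 0.222 over 20 such tests. For a single strain, 3 against 3 libraries cannot give a p below 0.1. Conversions as a percentage of covered T positions showed the same order, 0.757% in RDY234 against 1.02%, 1.08% and 0.870% in RDY235, RDY236 and RDY237 (exact permutation p 0.0273 for n = 9 against n = 3, adjusted p 0.222).

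**Figure D1:**
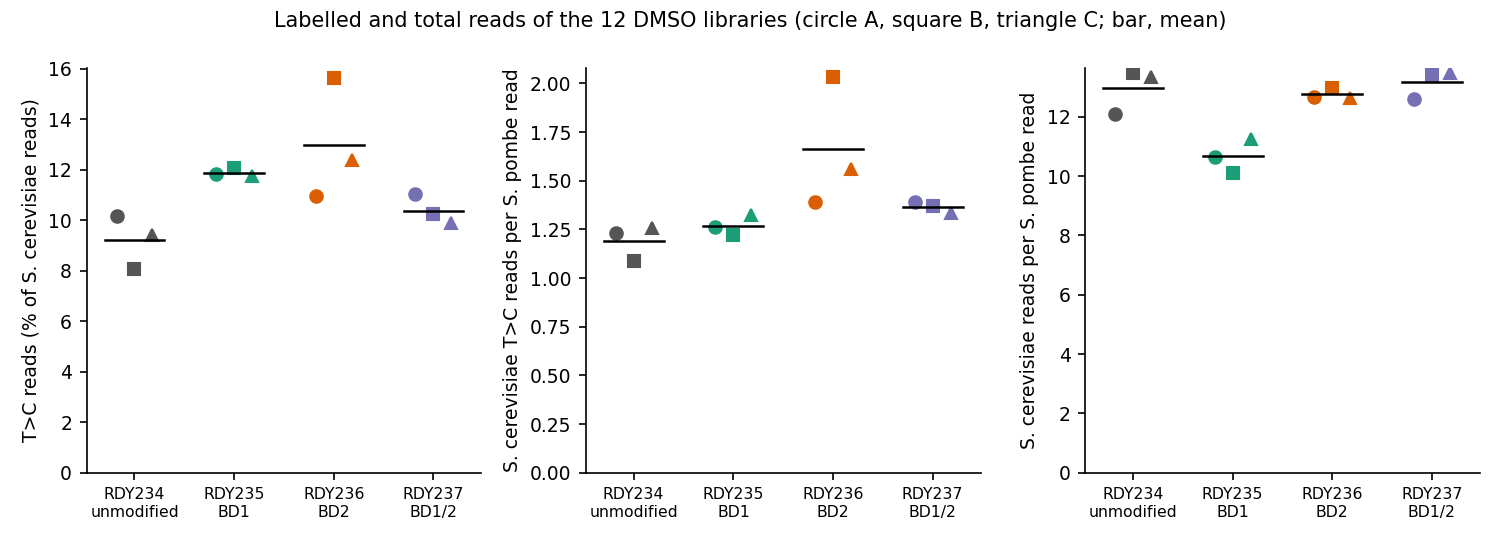
Library values of the 12 DMSO libraries by strain, 1 point per library (circle A, square B, triangle C) with bars at the group means: T>C reads in percent of S. cerevisiae reads, and T>C and all S. cerevisiae reads per S. pombe read. The T>C share lies between 8.09% and 15.7%, replicate B of RDY236 is the highest, and reads per S. pombe read are lowest in RDY235.

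Set against the spike-in, the strains differed in other ways. T>C reads per S. pombe read averaged 1.19 ± 0.0898 (RDY234), 1.27 ± 0.0521 (RDY235), 1.66 ± 0.333 (RDY236) and 1.37 ± 0.0285 (RDY237, all SD, n = 3), and the RDY236 mean rested in part on replicate B at 2.03. All reads of S. cerevisiae for each spike-in read came to 12.97 ± 0.756, 10.7 ± 0.576, 12.8 ± 0.191 and 13.2 ± 0.495 in the same order, so that RDY235 was below RDY234 in every library. No difference of a single strain could pass, since 3 against 3 libraries give an exact permutation p of at least 0.1. In T>C reads per S. pombe read RDY236 and RDY237 lay above RDY234 in every library, and RDY235 overlapped it. The 9 mutant libraries together gave exact permutation p of 0.136 for T>C reads and 0.377 for all reads (adjusted p 0.273 and 0.533). Scaled by the spike-in, the median tested gene differed from RDY234 by a log2 value of 0.10 in RDY235, 0.31 in RDY236 and 0.04 in RDY237 for T>C counts, and by -0.25, -0.09 and -0.16 for total counts. Changes below are given relative to the median gene unless the spike-in is named.

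A small set of genes differed in new RNA between the bromodomain-mutant strains and RDY234. With the 9 libraries together, 116 genes were raised (2.27% of tested genes) and 46 lowered (0.899%), 13 and 1 of them by at least 2-fold (0.254% and 0.0195%). The middle of the genes lay between log2 differences of -0.16 and 0.16 (25th and 75th percentiles). Every one of these 162 genes had the same sign in each strain taken alone and in total read counts, although it was the pooled difference that selected them. Of the 116 raised genes 91 were also raised in total counts (78.45% of them, and 27.49% of the 331 raised in total), and of the 46 lowered genes 33 were (71.74%, and 14.93% of 221). Total counts called 6.47% of genes raised and 4.32% lowered. Without a test, all 9 mutant libraries lay above all 3 of RDY234 in 3.69% of tested genes and below in 2.11%. For 1 strain these shares were 9.48% and 7.7% in RDY235, 10.1% and 9.81% in RDY236, and 14.1% and 11.9% in RDY237, so that a lack of overlap in a single strain is common. Scaled by the spike-in, 110 genes were raised (2.15%) and 1 was lowered (0.0195%), of which 90 and 1 were among the centred calls. Single libraries moved the centred count, which was 175 in a fit of the 12 libraries alone. Fits of 11 libraries called 40, 56 and 50 genes without replicate A, B or C of RDY234, 93 without replicate B of RDY235, 94 without replicate B of RDY237 and 339 without replicate B of RDY236.

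The raised gene of largest difference was ARG3 (YJL088W, chromosome X, 268799 to 270065, plus strand), the ornithine carbamoyltransferase of arginine synthesis. It had 4.45, 5.06 and 1.07 normalised T>C reads in RDY234 replicates A to C, 17.6, 22.7 and 10.5 in RDY235, 15.6, 11.2 and 11.6 in RDY236, and 20.6, 23.5 and 19.2 in RDY237. All 9 mutant libraries lay above all 3 RDY234 libraries, which held only 9 ARG3 T>C reads between them. The pooled log2 difference was 2.22 ± 0.42 (SE), or 4.66-fold, with an adjusted p of 0.00034, and each strain passed alone (2.27, 1.83 and 2.56 for RDY235, RDY236 and RDY237, adjusted p 0.0107, 0.0251 and 6.25e-05). The calls in RDY235 and in RDY236 were lost without any 1 of the RDY234 libraries. The RDY236 call was also lost in a fit of the 12 libraries alone. The pooled and RDY237 calls held in these fits. In total reads the values were 32.1, 32.1 and 21.3 in RDY234 and 45.2 to 82.1 in the mutants, a smaller log2 difference of 1.09 ± 0.18 (adjusted p 2.4e-05).

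RDY234 was the lowest of the strains for ARG3. The unmodified copy after IAA gave 6.68, 10.7 and 7.58 T>C reads, strain RDY251 under DMSO, whose further copy (pMD46) has 4 mutated ET residues, 40.1, 29.9 and 26.9, and RDY73 under DMSO 17.7, 26.5 and 24.2, the last from another library series. The mutant strains therefore lay above RDY234, near RDY73 and below RDY251 (log2 difference from RDY251 -0.93, adjusted p 0.03). In that comparison 0.488% of genes were raised and 3.69% lowered.

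YDL218W, a gene with no role given here (chromosome IV, 66493 to 67696, plus strand), behaved alike. Its T>C reads were 4.45, 3.79 and 4.30 in RDY234, 18.5, 15.99 and 14.7 in RDY235, 12.7, 12.7 and 18.7 in RDY236, and 17.3, 21.6 and 23.0 in RDY237. The groups did not overlap, and RDY251 stood higher still at 66.8, 64.2 and 94.2. The pooled log2 difference was 1.98 ± 0.41 (SE, adjusted p 0.00168), from 11 T>C reads in RDY234.

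HXT7, a high-affinity glucose transporter, could not be told apart from its near-identical neighbour HXT6, so its value stands for either. It had 16.7, 19.0 and 11.8 T>C reads in RDY234, 32.6, 37.9 and 50.5 in RDY235, 53.7, 73.5 and 61.4 in RDY236, and 47.7, 31.0 and 47.3 in RDY237. Every mutant library exceeded every RDY234 library. The pooled log2 difference was 1.58 ± 0.24 (SE, adjusted p 9.22e-06) in T>C reads and 1.34 ± 0.11 (adjusted p 5.33e-12) in total reads. RDY234 after IAA had 36.8, 47.3 and 41.2 T>C reads, within the range of the mutants under DMSO, and RDY73 had 283, 222 and 210.

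TSL1, the large regulatory subunit of trehalose synthase (chromosome XIII, 70624 to 74170, plus strand), had 11.1, 6.32 and 7.52 T>C reads in RDY234 and 15.6 to 30.7 in the mutants. The groups did not overlap, but the pooled difference of 1.33 ± 0.37 (SE, adjusted p 0.0268) was lost in the 11-library fits without RDY234 replicate B or C. Its total reads, with many more counts behind them, were 116, 131 and 146 in RDY234, 239, 252 and 216 in RDY235, 273, 188 and 289 in RDY236, and 364, 312 and 331 in RDY237. They placed RDY237 highest, and the pooled log2 difference was 1.04 ± 0.13 (adjusted p 1.93e-07).

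The remaining raised genes of largest difference were mostly non-coding or short. ETS2-2 and YLR154C-H lie in the ribosomal DNA repeat, whose near-identical copies make the assignment of reads uncertain. ETS2-2 had 25.6, 19.0 and 20.4 T>C reads in RDY234 and 37.5 to 148 in the mutants (log2 difference 1.90 ± 0.27, adjusted p 9.22e-06). The tRNA YNCN0006W, the small nucleolar RNA SNR63, YKR041W, whose counted interval overlaps the tRNA YNCK0019W, and YER053C-A rose by 1.05 to 1.12. Over the whole ribosomal DNA repeat list, however, 2 of 17 tested features were raised and 1 was lowered (2.27% and 0.899% of all genes), with a median of -0.17. That median was -0.45, -0.09 and 0.003 without replicate A, B or C of RDY234, whose own library medians were -0.535, 0.156 and 0.274.

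**Figure D2:**
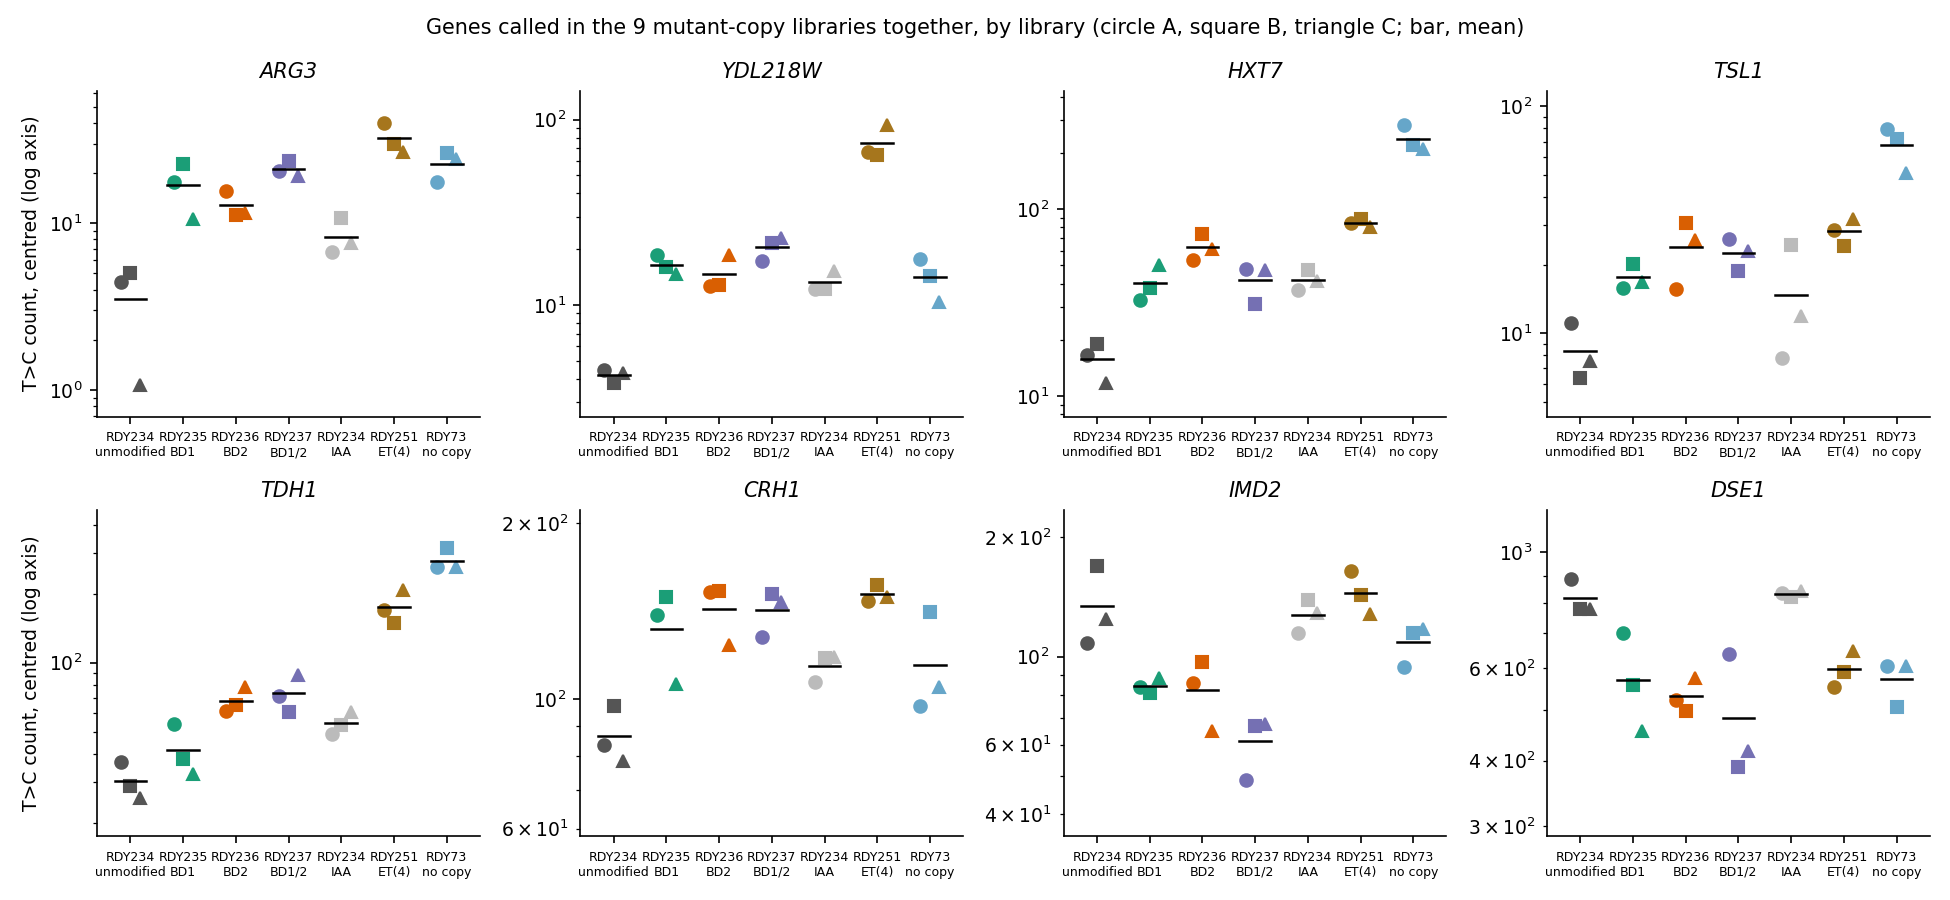
Centred T>C reads per library on a log axis for 8 genes raised or lowered in the 9 mutant libraries together, 1 point per library (circle A, square B, triangle C), with bars at the means of the 4 strains, of RDY234 after IAA and of RDY251 and RDY73 under DMSO. ARG3, YDL218W, HXT7 and TSL1 lie above every RDY234 library in all 9 mutant libraries and IMD2 lies below.

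Lowered genes differed by less than raised ones. SLI1, an N-acetyltransferase gene (chromosome VII), was the only one past 2-fold, with 33.4, 24.0 and 24.7 T>C reads in RDY234, 15.8, 20.2 and 16.8 in RDY235, 9.77, 8.996 and 19.6 in RDY236, and 9.76, 11.3 and 11.5 in RDY237. The groups did not overlap, the log2 difference was -1.02 ± 0.28 (SE, adjusted p 0.0241), and the call was lost without any 1 of the RDY234 libraries. The other 8 genes of this rank besides IMD2, namely SLS1, DFG16, YBL071C-B, PGS1, YMR262W, YBR062C, RPC34 and MSF1, had log2 differences of -0.95 to -0.79. Scaled by the spike-in, neither SLI1 nor any of these 8 was called. In the 11-library fits YMR262W and MSF1 were lost without any 1 of the RDY234 libraries. SLS1, YBL071C-B and RPC34 were lost without replicate A or C of RDY234, YBR062C without A or B and PGS1 without A. DFG16 kept its call. SLS1, PGS1 and MSF1 encode proteins of mitochondria and RPC34 is a subunit of RNA polymerase III.

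IMD2, an IMP dehydrogenase of guanine nucleotide synthesis near the end of chromosome VIII (554396 to 556217, plus strand), had the lowest adjusted p of these 10. It had 108, 170 and 125 T>C reads in RDY234, 83.7, 80.8 and 88.4 in RDY235, 85.9, 96.7 and 64.9 in RDY236, and 48.8, 66.7 and 67.7 in RDY237. All 9 mutant libraries were below RDY234, whereas RDY251 with its mutated ET domain was not, at 164, 143 and 128. The pooled log2 difference was -0.82 ± 0.15 (SE, adjusted p 0.000162) against RDY234 and -0.94 (adjusted p 4.8e-06) against RDY251. In total reads IMD2 fell from 1342, 1420 and 1349 in RDY234 to 491 to 815 in the mutants, by 1.02 ± 0.15 on the log2 scale (adjusted p 8.52e-06).

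DSE1, a daughter-cell gene, fell from 888, 779 and 778 T>C reads in RDY234 to 497 to 575 in RDY236 and 389 to 638 in RDY237, with a mean of 571 ± 124 in RDY235 (SD, n = 3) and all 9 mutant libraries below RDY234 (-0.63 ± 0.11 SE, adjusted p 0.000146). Unlike IMD2 it was as low in RDY251, at 554, 590 and 647 reads. PRM2, a pheromone-regulated membrane protein gene, fell by 0.75 (adjusted p 0.000898), with differences of -0.31, -0.91 and -1.03 in RDY235, RDY236 and RDY237.

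Short promoter motifs were counted in the raised and lowered genes, with no test of the difference. Promoters were read as the 300 bases before the start codon of 4940 tested protein-coding genes in the RefSeq R64 sequence, on both strands. AGGGG, the stress response element known to bind Msn2 and Msn4, was present in 36.8% of 106 raised promoters, 22.7% of 44 lowered ones and 21.9% of all. TTACTAA, known to bind Yap1, was present in 20.8%, 2.27% and 8.3%, and TATAAA in 62.3%, 36.4% and 46.2%. TGACTC, known to bind Gcn4, was at 8.49%, 2.27% and 7.73%. The remaining motifs searched were no more frequent in genes raised in the strains together, with CACGTG at 2.83% against 3.77% of all and GATGAG at 17.9% against 19.4%. In RDY236 alone AGGGG was in 35.4% of 113 raised and in 35% of 20 lowered promoters. Such matches are letters in a window, and binding was not measured.

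The promoters of 4 genes, the first 2 of genes raised in the 3 strains together and the others of genes raised most in RDY237, are printed 5′ to 3′ up to the base before the start codon, with AGGGG and TTACTAA and also TATAAA, or their reverse complements, in capitals. TSL1 (chrXIII:70324-70623, plus strand) holds 3 AGGGG and 2 TATAAA, and YDL218W (chrIV:66193-66492, plus strand), PST2 (chrIV:504696-504995, minus strand) and GTT2 (chrXII:21840-22139, minus strand) each hold TTACTAA, 241, 265 and 98 bases before the start codon.
TSL1: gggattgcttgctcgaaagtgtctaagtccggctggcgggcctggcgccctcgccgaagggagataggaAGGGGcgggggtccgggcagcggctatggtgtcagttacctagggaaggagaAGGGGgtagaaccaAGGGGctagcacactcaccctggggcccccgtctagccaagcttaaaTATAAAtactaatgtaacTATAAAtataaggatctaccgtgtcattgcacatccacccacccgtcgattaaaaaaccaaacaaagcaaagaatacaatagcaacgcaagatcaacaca
YDL218W: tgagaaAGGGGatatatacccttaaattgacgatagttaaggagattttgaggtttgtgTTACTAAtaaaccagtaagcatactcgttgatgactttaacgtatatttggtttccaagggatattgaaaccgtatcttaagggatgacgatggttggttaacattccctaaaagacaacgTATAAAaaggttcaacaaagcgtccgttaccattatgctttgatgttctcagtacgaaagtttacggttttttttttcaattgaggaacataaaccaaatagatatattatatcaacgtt
PST2: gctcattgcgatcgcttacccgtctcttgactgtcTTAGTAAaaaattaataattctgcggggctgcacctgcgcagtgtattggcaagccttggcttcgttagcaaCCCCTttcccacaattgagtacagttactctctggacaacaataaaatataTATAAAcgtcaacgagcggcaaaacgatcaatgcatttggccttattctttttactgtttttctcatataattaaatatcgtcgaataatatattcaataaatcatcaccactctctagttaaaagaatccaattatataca
GTT2: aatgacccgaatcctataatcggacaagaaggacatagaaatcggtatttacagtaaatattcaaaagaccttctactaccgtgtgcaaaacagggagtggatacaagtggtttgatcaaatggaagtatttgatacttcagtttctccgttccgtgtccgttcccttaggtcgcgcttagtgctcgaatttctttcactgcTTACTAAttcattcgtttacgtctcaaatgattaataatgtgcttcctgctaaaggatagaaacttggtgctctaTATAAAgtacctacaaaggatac
AGGGG is also present in YDL218W and PST2, 294 and 193 bases before the start codon, and GTT2 holds none within this window. Other raised genes differ, as the windows of ARG3, HXK1 and HPF1 hold neither AGGGG nor TTACTAA.

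Genes of the oxidative stress response known to depend on Yap1 were raised in part, most of them in RDY237. The list was chosen with earlier results of these data known, so the shares called are not an independent test. Of 22 tested members, among them the AAD genes for putative aryl-alcohol dehydrogenases, 11 were raised and 0 lowered in the pooled T>C comparison, with a median of 0.38 where the median of all tested genes was 0.00 and 2.27% of them were raised. In total counts 18 were raised and 0 lowered (6.47% and 4.32% of all genes). By strain, 0 passed in RDY235, 3 in RDY236 (2 with the replicate letter as a block) and 18 in RDY237, with medians of 0.27, 0.28 and 0.58. Over all genes 0.0586%, 2.34% and 3.83% were raised in these strains. The library medians against the RDY234 mean were 0.25 to 0.31 in RDY235, 0.19 to 0.33 in RDY236 and 0.47 to 0.60 in RDY237, all above the range of RDY234 itself (-0.07 to 0.04). RDY251 was higher, at 0.97 to 1.03, and RDY234 after IAA lower, at 0.11 to 0.14. RDY73, with no further copy, had 0.34 to 0.44, within the range of the mutants. In the 12 libraries alone the pooled count was 8, which fell to 2 or 3 without any 1 RDY234 library and was 19 without replicate B of RDY236. Its median stayed between 0.36 and 0.40 in all of these fits. For RDY237 the 12 libraries alone gave 16 raised and 1 lowered, and 8, 9 and 10 were raised without replicate A, B or C of RDY234.

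Within that list GTT2, a glutathione transferase, had 347, 324 and 376 T>C reads in RDY234, 484, 433 and 501 in RDY235, 553, 472 and 492 in RDY236, and 652, 766 and 672 in RDY237. The strains did not overlap RDY234, and RDY237 was above the other mutants in every library. The pooled log2 difference was 0.65 ± 0.11 (SE, adjusted p 9.57e-05). TRR1, the cytosolic thioredoxin reductase, and SRX1, the sulfiredoxin that restores peroxiredoxins, rose by 0.54 and 0.57 (adjusted p 0.00139 and 0.0132), and AAD6 by 0.56 (adjusted p 0.005).

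Of 43 general stress genes known to depend on Msn2 and Msn4, 5 were raised and 0 lowered in T>C counts (median 0.30, with 2.27% of all genes raised), and 21 and 0 in total counts (median 0.37, with 6.47% of all genes raised). The T>C figure was 5 in the 12 libraries alone. It was 2, 1 and 2 without replicate A, B or C of RDY234 and 8 without replicate A of RDY236. In RDY234 after IAA the library medians of the list in T>C counts were 0.25, 0.19 and 0.39, within the 0.12 to 0.43 of the 9 mutant libraries under DMSO. In RDY237 the total-count figure was 25 (median 0.53), where 10.4% of all genes were raised and 8.23% lowered. HSP12, a small membrane heat shock protein, had 3.34, 2.53 and 1.07 T>C reads in RDY234 and 1.28 to 30.7 in the mutants. These overlapped, and the log2 difference of 1.74 ± 0.85 did not pass (adjusted p 0.296). RDY234 was again low relative to RDY73, whose library medians of the list were 1.03 to 1.27.

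Sugar metabolism genes were raised in part. In the glycolysis and fermentation list 4 of 19 passed in T>C counts (median 0.33), where 2.27% of all genes were raised. The 12 libraries alone gave 2 raised. Fits without replicate A, B or C of RDY234 gave 1, 1 and 0, and the fit without replicate B of RDY236 gave 7. In total counts 6 passed, where 6.47% of all genes were raised. The list's library medians in T>C counts were 1.055 in replicate B of RDY236 and 0.02 to 0.44 in the other mutant libraries. Without that replicate the pooled median was 0.21. RDY251 and RDY73 under DMSO had library medians of 0.48 to 0.72 and 0.51 to 0.57. TDH1, the glyceraldehyde-3-phosphate dehydrogenase isozyme of slow growth, had 36.7, 29.1 and 25.8 T>C reads in RDY234, 53.7, 37.9 and 32.6 in RDY235, 61.5, 65.2 and 78.3 in RDY236, and 71.5, 61.1 and 88.2 in RDY237. Only replicate C of RDY235 fell within the range of RDY234. The pooled difference was 0.95 ± 0.20 (SE, adjusted p 0.00214), and in total reads 1.25 ± 0.16 (adjusted p 8.68e-07). HXK1, a hexokinase, rose by 0.99 (adjusted p 0.0171), and of 6 hexose transporter genes HXT7 alone was called.

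Of 23 cell wall genes tested, 3 were raised and 0 lowered in the strains together (2.27% and 0.899% of all genes), with a median difference of 0.34. By strain 0, 7 and 4 were raised in RDY235, RDY236 and RDY237 (0.0586%, 2.34% and 3.83% of all genes). The RDY236 count was 4 with the replicate block and 2 in the 12 libraries alone. It was 0, 1 and 0 without replicate A, B or C of RDY234. In total counts 11 were raised in the strains together (6.47% of all genes). Library medians of the list in T>C counts were 0.15 to 0.66 in the mutants, 0.55 to 0.64 in RDY251 and 0.22 to 0.42 in RDY73. YGP1, a secreted glycoprotein gene, had 34.5, 37.9 and 50.5 T>C reads in RDY234, 72.2, 87.5 and 70.5 in RDY235, 76.2, 54.7 and 79.2 in RDY236, and 96.5, 116 and 111 in RDY237. The groups did not overlap, and the log2 difference was 1.01 ± 0.18 (SE, adjusted p 0.000146). CRH1, a cell wall transglycosylase, rose by 0.69 ± 0.14 (adjusted p 0.000898), by nearly the same in each strain (0.62, 0.73 and 0.72).

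Among 59 amino acid biosynthesis genes 5 were raised and 0 lowered (median 0.17), where 2.27% of all genes were raised. Among these 5 were ARG3, described above, and LEU4 and LYS20, of leucine and lysine synthesis. In RDY237 alone 8 genes of the list were raised and 1 lowered (3.83% and 1.5% of all genes). In total counts of the strains together 12 were raised and 3 lowered (6.47% and 4.32% of all genes).

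Of 15 transcripts of the mitochondrial genome 2 were raised in the pooled T>C comparison (median 0.56, with 2.27% of all genes raised), BI3 by 0.90 (adjusted p 0.033) among them, whereas in total reads 5 of 15 were above and 0 were called (median -0.06). T>C reads were 0.366% to 0.531% of all reads of these transcripts in RDY234, 0.703% to 0.920% in RDY235, 0.860% to 1.10% in RDY236 and 0.884% to 1.06% in RDY237, so that no mutant library overlapped RDY234. These shares were not corrected for the share over all genes, on average 9.23% in RDY234 and 11.8% in the mutants. Cytosolic ribosomal protein genes (at most 3.39% in RDY234, at least 3.56% in the mutants) and Yap1-type genes (27.06% and 30.15%) did not overlap either. Glycolysis and fermentation genes did. Library medians of the mitochondrial list in T>C counts were 0.12, -0.34 and 0.14 in RDY234 and 0.29 to 0.91 in the mutants, and RDY234 after IAA, at 0.09, 0.59 and 0.27, overlapped both. RDY251 and RDY73 under DMSO, at 0.73 to 0.89 and 0.36 to 0.89, lay within the range of the mutants. The background of T>C reads in unlabelled RNA was not measured, and its part in shares this low was not tested.

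Lists of the complexes that Bdf1 is known to associate with and of histones are short, and with 2.27% of all tested genes raised and 0.899% lowered nothing is read from their counts of 0. Of 15 tested genes for TFIID subunits and TBP 0 were called (median -0.03), of 21 for SWR1 and NuA4 subunits 0 (median -0.07), and of 11 histone genes 0 (median 0.19). SPT15, which encodes TBP, rose in the comparison of RDY237 with RDY234, by 0.53 ± 0.13 (adjusted p 0.00618). Ribosome biogenesis had 1 of 100 raised and 0 lowered, with a median of 0.00. Of 25 cell cycle and daughter-cell genes DSE1 was the 1 lowered, with a median of -0.11.

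**Figure D3:**
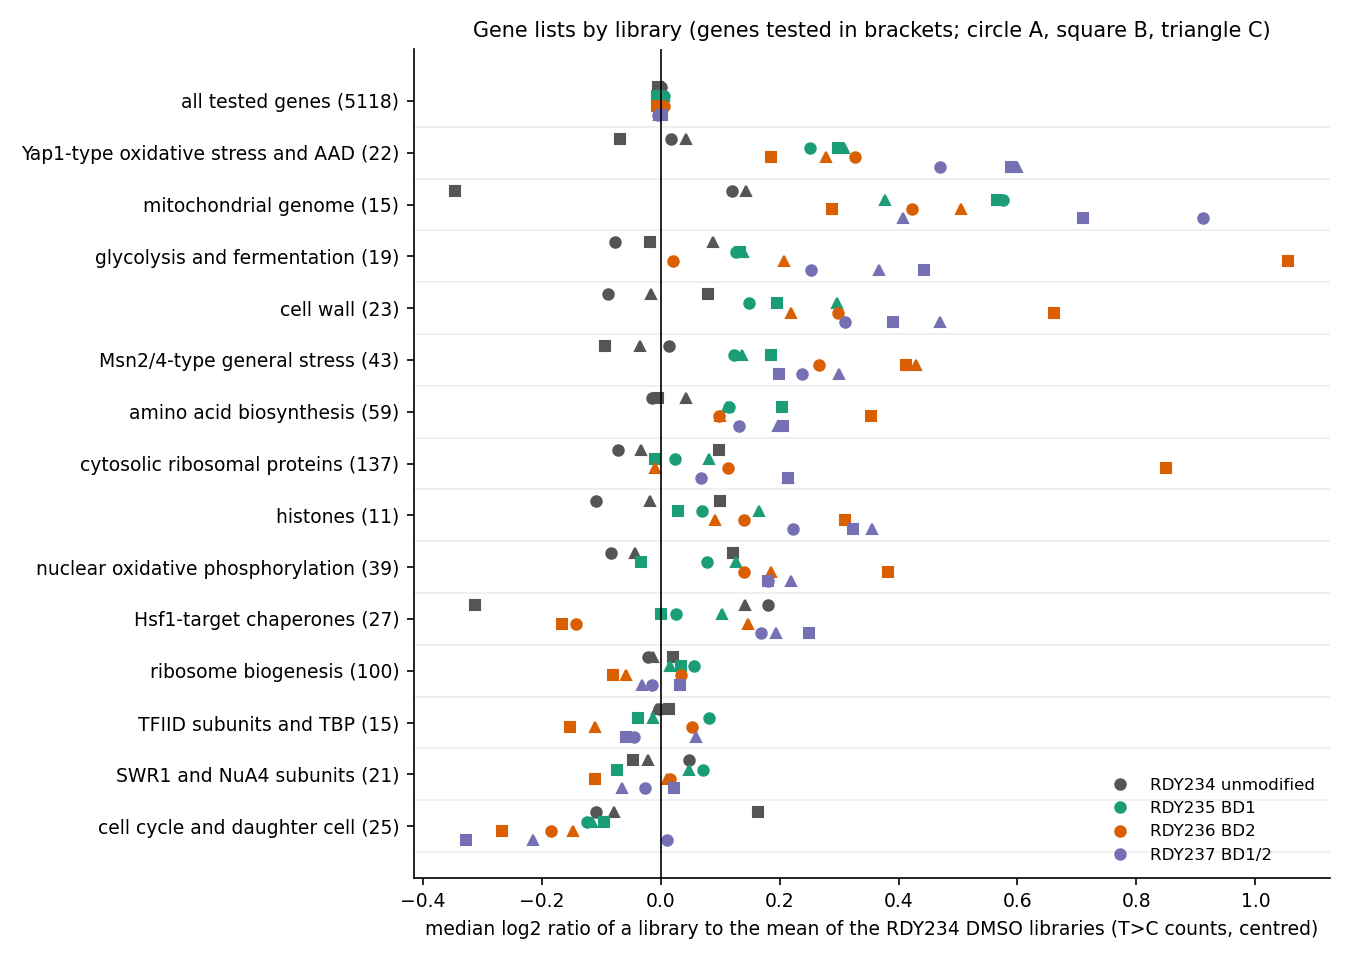
Median log2 ratio of each library to the mean of the RDY234 libraries for 14 gene lists and all tested genes, centred T>C reads, 1 point per library (circle A, square B, triangle C), coloured by strain. The Yap1-type list lies at 0.47 to 0.60 in RDY237, and replicate B of RDY236 stands at 0.85 for cytosolic ribosomal protein genes.

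The strains differed in how many genes passed. RDY235, with the BD1 mutation, had 3 genes raised (0.0586%) and 0 lowered, the raised ones being ARG3, ETS2-2 and HXT7; 371 genes had an unadjusted p under 0.05 and DESeq2 called 13 in all. RDY236, with the BD2 mutation, had 120 raised (2.34%) and 20 lowered (0.391%). RDY237, with both, had 196 raised (3.83%) and 77 lowered (1.5%), 32 and 20 of them by at least 2-fold (0.625% and 0.391%). In the 12 libraries alone these counts were 5, 51 and 312. With the replicate letter as a block, whose basis is given with the processing, RDY236 had 91 (68 raised and 23 lowered). Without replicate A, B or C of RDY234 they fell to 4, 7 and 11 in RDY236 and to 129, 168 and 192 in RDY237, whose own replicates B and C gave 134 and 147 when left out. Such counts do not show that the strains differ, and the strains were therefore tested against each other.

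Between RDY236 and RDY235 no gene passed: 0 were called, 419 had an unadjusted p under 0.05, the fit of the 12 libraries called 1 and total reads called 0. RDY237 differed from RDY235 in 19 raised (0.371%) and 5 lowered (0.0977%) genes, and from RDY236 in 31 raised (0.606%) and 8 lowered (0.156%). In total reads these were 61 and 17 (1.19% and 0.332%), and 37 and 11 (0.723% and 0.215%). These pairs share RDY237.

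Among the genes in which RDY237 exceeded both single mutants were redox enzymes. PST2, a flavodoxin-like protein gene (chromosome IV, 503849 to 504695, minus strand) whose promoter is printed above, had 355, 276 and 335 T>C reads in RDY234, 416, 392 and 395 in RDY235, 466, 471 and 438 in RDY236, and 802, 861 and 778 in RDY237. The strains formed 4 levels that did not overlap. RDY237 exceeded RDY234 by 1.34 ± 0.14 (SE, adjusted p 1.25e-11), RDY235 by 1.02 (adjusted p 3.47e-07) and RDY236 by 0.83 (adjusted p 9.09e-05). In RDY251 the gene was higher again, at 1602, 1426 and 1448 reads.

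SRX1 had 605 ± 106 T>C reads (SD, n = 3) in RDY234, 761, 680 and 745 in RDY235, 834, 650 and 712.4 in RDY236, and 1261, 1388 and 1418 in RDY237. Only RDY237 stood clear of all other libraries. It exceeded RDY235 by 0.90 (adjusted p 0.00152) and RDY236 by 0.89 (adjusted p 0.000889), while RDY235 and RDY236 differed from RDY234 by 0.27 each (adjusted p 0.822 and 0.455). TRR1 and AAD6 followed, above RDY235 by 0.58 and 0.65 and above RDY236 by 0.62 and 0.80, all called. TTACTAA was found in 22.9% of 179 promoters of genes raised in RDY237, against 8.3% of all, and AGGGG in 28.5% against 21.9%; the promoters of TRR1 and SRX1 held neither.

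AIM33 and HPF1 were also higher in RDY237 than in either single mutant. AIM33 had 28.9, 22.8 and 34.4 T>C reads in RDY234, 40.5, 32.0 and 30.5 in RDY235, 32.2, 22.5 and 30.2 in RDY236, and 68.3, 69.5 and 62.6 in RDY237 (0.96 above RDY235, adjusted p 0.00811; 1.25 above RDY236, adjusted p 0.000143). HPF1, a cell wall mannoprotein gene, had 7.79, 10.1 and 7.52 in RDY234, 7.05, 12.6 and 7.37 in RDY235, 8.79, 11.2 and 3.56 in RDY236, and 19.5, 25.4 and 30.7 in RDY237. For both genes RDY237 alone lay above, and RDY234 and the single mutants overlapped. The HPF1 differences were 1.43 from RDY235 and 1.62 from RDY236 (adjusted p 0.048 and 0.011). Against RDY235 the HPF1 call was lost without any 1 library of either strain.

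GPD2, a glycerol-3-phosphate dehydrogenase of redox balance (chromosome XV, 217126 to 218698, plus strand), was the gene lowered most in RDY237. Its T>C reads were 468, 884 and 730 in RDY234, 558, 922 and 969 in RDY235, 538, 622 and 89.8 in RDY236, and 133, 114 and 155 in RDY237. The 3 RDY237 libraries were low, and so was replicate C of RDY236, against its own replicates. RDY237 differed from RDY234 by -2.38 ± 0.53 (SE), or 5.20-fold, with an adjusted p of 0.00475, and from RDY235 by -2.61 (adjusted p 0.00872). The same libraries were low in total reads, with 1371, 1666 and 293 in RDY236 against 396, 359 and 429 in RDY237. In a fit of the 12 libraries alone the difference from RDY234 no longer passed (adjusted p 0.0704), and against RDY236 it passed only without replicate C (-2.12, adjusted p 0.000241).

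For GPD2 the other strains fell on both sides. RDY251 under DMSO had 189, 187 and 208 T>C reads and RDY73, with no further copy, 84.5, 159 and 131, both near RDY237, whereas RDY234 after IAA had 542, 786 and 665. YBR012W-B, a Ty retrotransposon gene whose many near-identical copies make its reads uncertain, had a like pattern: 48.1 to 60.2 T>C reads in RDY234, 55.5 to 84.2 in RDY235, 56.6, 71.2 and 25.8 in RDY236, and 9.76, 22.6 and 29.4 in RDY237, with replicate C of RDY236 again the low one. It was 1.78 below RDY235 in RDY237 (adjusted p 0.0287).

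YVC1, a vacuolar cation channel gene whose counted interval overlaps the tRNA YNCO0018W, fell in RDY237 without such an exception. It had 59.0, 63.2 and 67.7 T>C reads in RDY234, 48.4, 47.97 and 65.3 in RDY235, 50.8, 47.98 and 40.0 in RDY236, and 30.4, 20.7 and 15.3 in RDY237. RDY237 lay below all the others, with log2 differences of -1.50 (SE 0.26) from RDY234, -1.25 from RDY235 and -1.04 from RDY236 (adjusted p 2.56e-05, 0.00427 and 0.0217).

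**Figure D4:**
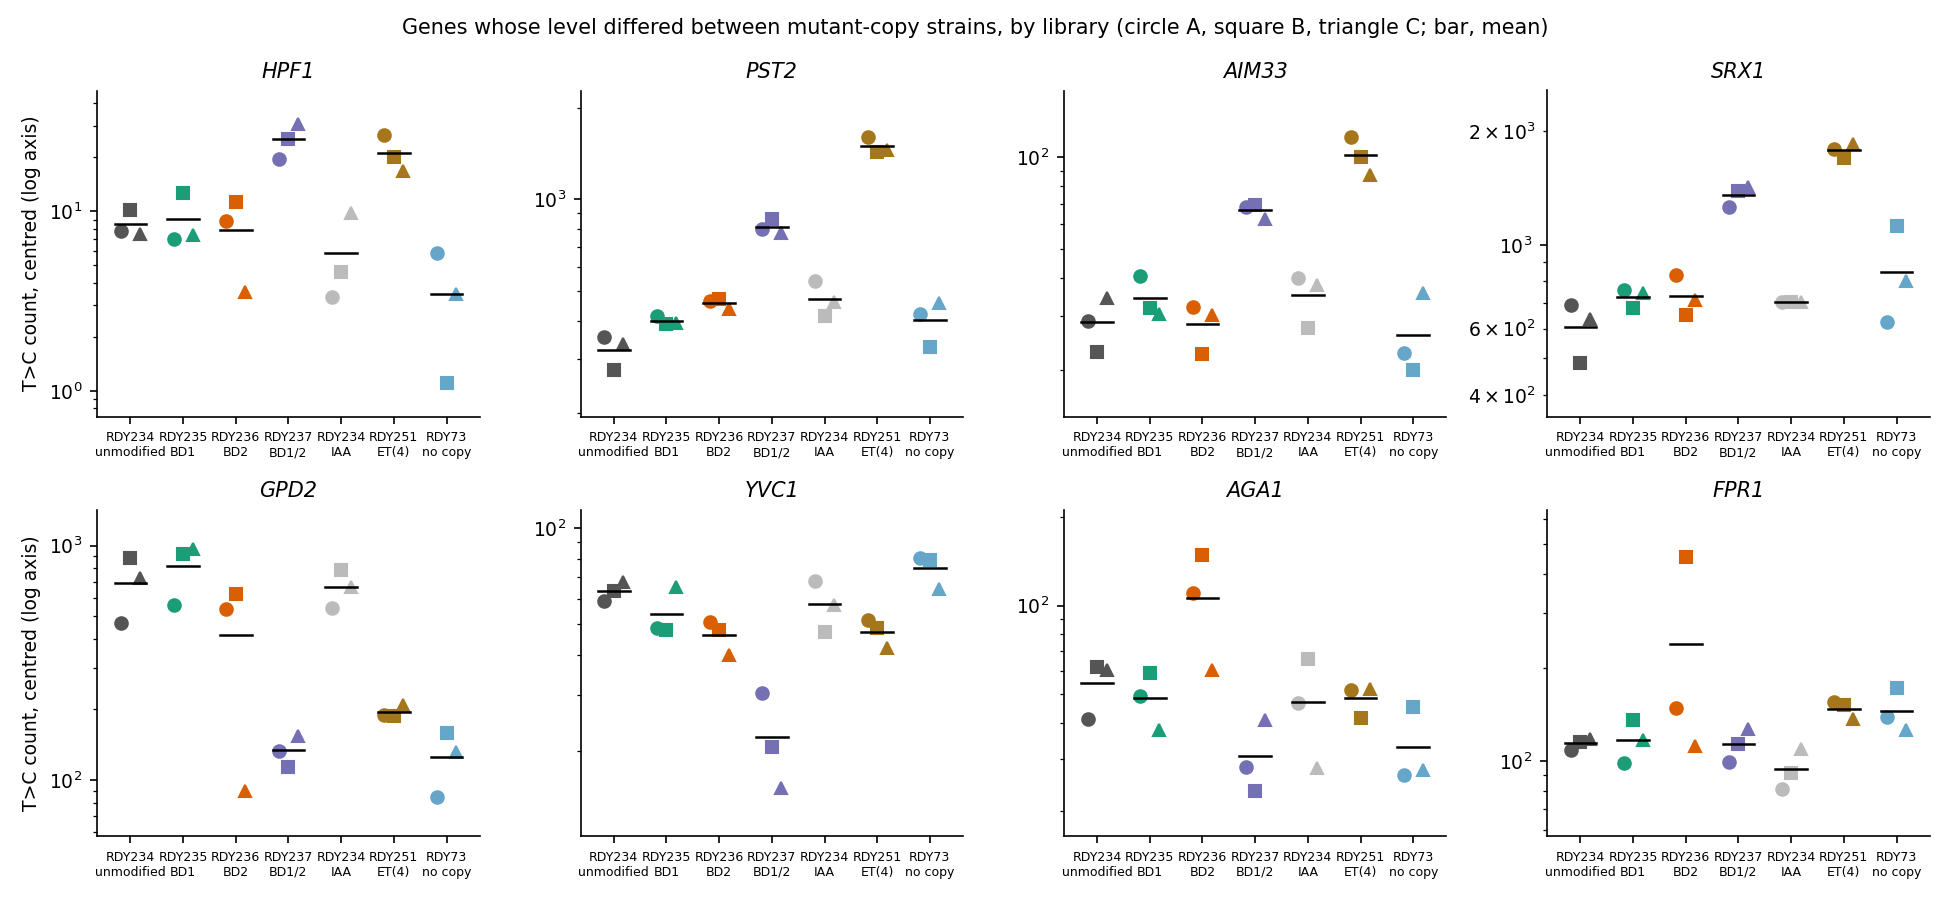
Centred T>C reads per library on a log axis for 8 genes that differed between mutant strains, 1 point per library (circle A, square B, triangle C), with bars at the group means and the same other strains beside them. Among the 12 libraries PST2, SRX1 and HPF1 are highest in RDY237 and YVC1 lowest, and replicate C of RDY236 lies with RDY237 for GPD2.

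In replicate B of RDY236 a larger share of abundant RNA carried conversions. The number of genes called in RDY236 was 51 in the 12 libraries alone and also 51 without this library, but 160 and 163 without replicate A or C. Lists of abundant RNA moved with replicate B. T>C reads were 8.08% of all reads of cytosolic ribosomal protein genes there and 2.87% to 4.30% in the other 11 libraries. For glycolysis and fermentation genes it was 11.8% against 3.28% to 4.73%, and for FPR1, an abundant FK506-binding protein gene, 6.98% against 1.12% to 2.15%. By contrast the Yap1-type genes had 34.9% there and 30.2% and 33.7% in the other RDY236 libraries. FPR1 had 148, 455 and 112 normalised T>C reads in RDY236 but 8428, 7927 and 7621 total reads, so that replicate B was high only in converted reads.

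In RDY236, 27 of 137 cytosolic ribosomal protein genes were raised and 1 lowered (median 0.38), and 10 of 19 glycolysis genes were raised (median 0.55). Over all genes 2.34% were raised and 0.391% lowered. With replicate B left out the medians were 0.06 and 0.14, and 0 and 1 genes passed. Fitted with all 12 libraries alone, 0 and 2 passed, and with the replicate block 0 and 3 were raised. For ribosomal protein genes RDY235 and RDY237 had medians of 0.04 and 0.15, with 0 and 6 raised (0.0586% and 3.83% of all genes). The higher RDY236 median rested on replicate B, as library medians were 0.114, 0.849 and -0.009 there and 0.068, 0.215 and 0.214 in RDY237. In total reads 1 ribosomal protein gene was raised in RDY236 (2.62% of all genes). HOR7, a gene of the osmotic response, which was among the genes raised most in RDY236 (1.57, adjusted p 0.00224), had 357, 1108 and 624 T>C reads there against 230 to 239 in RDY234, and a difference of 1.07 with an adjusted p of 0.0935 without replicate B (1.57 and 0.0689 in the 12 libraries alone). HXT7 kept its difference without that library (1.87, adjusted p 2.11e-05), as did TDH1 (1.196, adjusted p 0.00192).

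AGA1, the anchor of the a-agglutinin, was high in RDY236 in new and in total reads, with 110, 148 and 60.5 T>C reads against 41.2 to 62.0 in RDY234 and 23.5 to 40.9 in RDY237. Replicate C fell within the range of RDY234. RDY237 was below RDY236 by 1.82 (adjusted p 0.00182), and in total reads by 1.18 (adjusted p 0.0477), although against RDY234 neither strain was called on the centred scale (adjusted p 0.0654 and 0.204). With the replicate block AGA1 passed in RDY236 (0.94, adjusted p 0.0462), and FPR1 did not (0.94, adjusted p 0.318, against 1.08 and 0.0251 without it). Scaled by the spike-in, under which 10.6% of genes were raised in RDY236, AGA1 was raised there by 1.31 (adjusted p 0.00102).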

How the data were processed

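The authors trimmed reads with fastp 0.23.2 and bbduk and ran SLAM-DUNK 0.4.3, as the headers name it, for alignment and counting on the R64-3-1 S. cerevisiae and ASM294v2 S. pombe genomes. The deposited values are raw counts per gene and library, with no pooling or normalization: total read counts and T>C counts. Libraries were 3′ mRNA-seq, so counts do not scale with transcript length, and the counted intervals run 250 bases past the gene, whereby 996 of the tested intervals share bases with another on the same strand. The reference gene table held 6462 of the 6465 names and gave the strand and promoters. The deposited numbers of covered T positions and of conversions were used only to describe libraries. The study's methods name DESeq2 for normalization and differential expression of T>C counts.

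Tests covered the 5118 genes whose T>C count averaged 10 or more across all 48 libraries. Counts were scaled by the median ratio over 4955 S. pombe genes (total reads), or centred on the median of the tested genes. edgeR 4.0.16 (R 4.3.3) fitted 1 coefficient per strain and treatment, and its quasi-likelihood test gave the adjusted p-values for genes. Library values were compared by exact permutation. Named genes were BDF1, BDF2 and TRP1, the 10 raised and 10 lowered most in the 3 strains together with 1 sign in each strain, the 5 and 5 of each strain, the 3 and 3 of each pair of mutants, all among called genes, and up to 4 per gene list with the largest difference. The members and lists were chosen with earlier results of these data known.

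Alternatives were DESeq2 1.42.0, TMM scaling, no filter, the 12 libraries alone, a replicate block, RDY234 DMSO and IAA as reference, the 9 libraries as 1 group, S. pombe T>C reads for scaling, and leaving out each library of the 12. The replicate letters were checked as pairs by the correlation of deviations from the group means: all 3 letters exceeded 0.1 for RDY234 with RDY236 (0.202, 0.374 and 0.119) and in no other pair of strains, so the blocked values stand beside the RDY236 results they change. A simulation on these libraries' means tested the fit. Replicates of 1 strain differed by more than sampling noise in all 12 pairs. The total and T>C reads per library are given with the results. Counts are of reads, and reads copied from 1 molecule are not independent. Libraries of the other strains entered the fit for the estimate of spread and are otherwise named only beside single genes and gene lists.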

Additional observations from a re-analysis of the deposited data

Results flagged for a closer look

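The strains of the mutant copies were tested directly against each other in T>C reads centred on the median gene, and the genes of largest difference among those that passed are listed here because the effect against RDY234 then differed between 2 strains. From RDY235 to RDY237 HPF1 was higher by 1.43, PST2 by 1.02 and AIM33 by 0.96 on the log2 scale, and GPD2 changed by -2.61, YBR012W-B by -1.78 and YVC1 by -1.25. From RDY236 to RDY237 HPF1 was higher by 1.62, ETS2-2 by 1.33 and AIM33 by 1.25, and AGA1 changed by -1.82, FPR1 by -1.10 and YVC1 by -1.04.

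In fits of the 12 DMSO libraries with 1 left out, PST2 passed against both strains in every case. HPF1, GPD2 and YBR012W-B passed against RDY235 in none. Against RDY235, AIM33 was lost without replicate B or C of either strain, and YVC1 without RDY235 replicate C or RDY237 replicate B or C. Against RDY236, HPF1 was lost without RDY236 replicate C, and YVC1 without RDY236 replicate A. Both were also lost there without RDY237 replicate B or C, and AGA1 without RDY237 replicate A or B. FPR1 passed against RDY236 in none, and without replicate B of RDY236 its difference was -0.20 (adjusted p 0.705).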

How the results depend on the processing

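Counts of called genes, and spike-in-scaled medians, that moved by more than 1.5 times or by more than the replicate spread are given here as main value and alternative. In centred T>C reads the 3 strains together (162 genes) gave 457 with RDY234 DMSO and IAA as reference and 47 with the 9 libraries as 1 group. RDY235 (3) gave 13 by DESeq2 and 5 in the 12 libraries alone. RDY236 (140) gave 51 in the 12 libraries alone and 342 with both RDY234 treatments as reference, and RDY237 (273) gave 418 with the latter. Scaled by the spike-in, called genes are given in percent of those tested. The strains together (2.17%) gave 3.52% by DESeq2, 11.8% with both RDY234 treatments and 0.821% as 1 group. RDY235 (0.0391%) gave 0.0782% by DESeq2, 0.0977% in the 12 libraries and 0.0195% with S. pombe T>C reads for scaling, and its median log2 difference of 0.10 became 0.12 with both RDY234 treatments and -0.0018 with S. pombe T>C reads. RDY236 (10.6%) gave 17.1% in the 12 libraries, 22.2% with both treatments and 20.97% with S. pombe T>C reads. RDY237 (1.45%) gave 2.29% and 2.66% with the last 2, and its median of 0.04 became 0.14 with S. pombe T>C reads. In the 12 libraries alone total counts gave 976, 226 and 407 genes centred (552, 84 and 175 for the strains together, RDY235 and RDY236), and by spike-in 39.10%, 43.9%, 8.32% and 35.2% (13.9%, 5.92%, 0.547% and 13.9%, RDY237 last). Between RDY236 and RDY235 (0) the 12 libraries gave 1 and the spike-in 7, and the spike-in gave 5 from RDY235 to RDY237 (24) and 24 from RDY236 to RDY237 (39).

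Leaving out 1 library in the 12-library fit gave, in centred T>C reads, 40 to 339 genes for the strains together, 1 to 2 for RDY235, 4 to 163 for RDY236 and 129 to 338 for RDY237. By spike-in it gave 0.293% to 9.24% (median 0.069 to 0.256), 0.0195% to 0.0586% (0.0187 to 0.202), 1.64% to 27.9% (0.233 to 0.424) and 0.899% to 2.58% (-0.0436 to 0.139). Centred total counts gave 488 to 1180, 71 to 213, 195 to 341 and 901 to 1506. By spike-in they gave 20.5% to 40.5% (median -0.188 to -0.127), 28.1% to 41.1% (-0.273 to -0.209), 3.2% to 8.24% (-0.111 to -0.0515) and 23.8% to 33.0% (-0.178 to -0.119). The pairs gave 0 to 3 from RDY235 to RDY236, 1 to 22 from RDY235 to RDY237 and 10 to 52 from RDY236 to RDY237. The differences from RDY234 in library values ranged from 2.09 to 3.14 (RDY235, T>C share), -0.642 to 0.0425 (RDY236, reads per S. pombe read), 0.121 to 0.204 (RDY237, T>C reads per S. pombe read), -0.297 to 0.000186 (RDY236, S. pombe T>C share), 0.207 to 0.316 (RDY235, conversions) and 0.0555 to 0.165 (RDY237, conversions).

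Across the 4 strains deviations of same-letter libraries correlated at -0.349 to 0.374 (median 0.105, 18 pairs of libraries) and those of other letters at -0.448 to 0.396 (median -0.053), and 6 of the 12 libraries were closest to their own letter. Besides RDY234 with RDY236 the letters are taken as no pairing. The replicate block gave 1 gene for RDY235 and 91 for RDY236 in centred T>C reads, 0.117% for RDY235 and 2.21% for RDY237 by spike-in, 2 from RDY235 to RDY236 and 38 from RDY235 to RDY237.

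Of values of named genes, TMM scaling kept direction and side of the threshold in 129 of 129, DESeq2 in 113 of 129, both RDY234 treatments as reference in 106 of 129, the 9 libraries as 1 group in 82 of 106 (22 lost the call), the 12 libraries alone in 123 of 141 and the replicate block in 124 of 141. Leaving out 1 library kept them in 1176 of 1482 and lost the call in 242. PHM8 of the phosphate list, which was not called, changed sign, to -0.024 with both RDY234 treatments as reference, and ranged from -0.12 without RDY234 replicate C to 0.69 without its replicate B. Genes with few T>C reads in RDY234, ARG3 and YDL218W among them, are limited by depth. The causes of these shifts were not tested.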

Other observations

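Of 39 nuclear genes of oxidative phosphorylation 1 was raised in T>C counts in the 3 strains together (median log2 difference 0.13), near the 2.27% of all genes, and 11 in total counts (median 0.22), where 6.47% of all genes were raised. In either count 0 were lowered. INH1, the inhibitor of the mitochondrial ATP synthase, had 13.3, 20.2 and 15.1 centred T>C reads in RDY234, 31.7, 16.8 and 28.4 in RDY235, 27.3, 64.5 and 35.6 in RDY236, and 18.4, 30.1 and 24.3 in RDY237. RDY235 and RDY237 overlapped RDY234 and RDY236 did not, with a log2 difference of 1.43 (adjusted p 0.00375 by edgeR) that includes replicate B, the highest library.

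With 2.27% of all tested genes raised and 0.899% lowered, in the phosphate list 1 of 21 genes was raised, PHO84, the high-affinity phosphate transporter, whose counted interval overlaps that of YML122C, by 0.35 (adjusted p 0.0476), and in the iron and zinc list 1 of 20 was lowered, FRE6, a vacuolar ferric reductase, by a log2 difference of -0.53 (adjusted p 0.00925). SPL2, a regulator of low-affinity phosphate uptake, had 118, 140 and 127 T>C reads in RDY234, 166, 190 and 205 in RDY235, 190, 217 and 190 in RDY236, and 142, 133 and 128 in RDY237. RDY235 and RDY236 lay above RDY234 in every library and RDY237 did not. SPL2 was called in RDY236 (0.64, adjusted p 0.0113), not in RDY235 (0.54, adjusted p 0.216), and RDY237 was below RDY236 by a log2 difference of -0.57 (adjusted p 0.0423). Of 26 sulfur and methionine genes 0 passed in T>C counts, and 8 were raised and 1 was lowered in total counts, where 6.47% and 4.32% of all genes were. Of 27 Hsf1-target chaperone genes 1 was raised, AHA1, an Hsp90 co-chaperone, by 0.50 (adjusted p 0.0107). RPL22B, a ribosomal protein gene whose counted interval shares bases with that of MOB2, so that its reads are uncertain, had a log2 difference of -0.49 (adjusted p 0.00259). Of 32 genes tested within 15 kb of a chromosome end 3 were raised and 1 was lowered.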
